A study of Mus musculus with 3 samples.

Results

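The Hedgehog pathway genes described here are *Shh* (a ligand), *Smo* (the transducer), *Gli1* and *Gli2* (transcription factors) and *Hhip* (a ligand-binding antagonist and target). They were chosen by name, as 5 of the 9781 gene rows used, and all 5 had a row. Their values were followed through epithelium-like, fibroblast-like and smooth muscle-like cells, which were defined from marker genes with the Hedgehog genes left out of the clustering. For context, 32 of a list of 58 Hedgehog pathway genes had a row, the 5 genes included.

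In Hedgehog signaling, a secreted ligand binds the receptor Patched 1, which relieves the restraint it places on Smoothened. Smoothened then acts at the primary cilium to release Gli factors into an activating form. *Gli1* is a target of the pathway as well as an effector, so its transcript is widely used as a sign of a responding cell. *Hhip* is another target, and its product binds ligand and limits its spread. In the developing prostate, the ligand is known to come from the epithelium of the urogenital sinus and its buds, and the surrounding mesenchyme is known to respond.

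The data were droplet single cell RNA-seq libraries of 3 tissues labelled normal, 1 library each. They were the male urogenital sinus at E18.5, and the prostate at P14 and at P35. The urogenital sinus is the embryonic tissue that gives rise to the prostate. Tissues were dissociated with collagenase and TrypLE, and the labels give no genotype for them, while mice of the study had mixed C57BL/6 and 129S1/SvImJ backgrounds. The study traced cells of the *Osr1* lineage with an *Osr1-Cre* driver and a *Rosa26* mTmG reporter, and the labels do not say whether these libraries carried them. The labels give no number of animals per library, so the spread between animals is not known here.

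One table of 14573 cells held all 3 libraries, and each barcode ended in 1, 2 or 3. The labels give no link from ending to tissue. The smallest set has as many cells as the study states for one of the tissues, the larger sets match no number stated there, and no tissue was assigned from this. The endings are called barcode sets 1, 2 and 3, values are given side by side, and ages were not compared. Sets held 766, 5350 and 8457 cells, with medians of 19357, 1738 and 1788 unique molecular identifiers (UMIs, each standing for a captured mRNA molecule) per cell. Sets 2 and 3 shared 13 barcodes, sets 1 and 2 shared 1, and sets 1 and 3 shared 0. Rates below (CPM) divide the UMIs of a gene by all UMIs of the same cells, genes without a row included, and are given per 1000000. Without replicates there was no test, and each 95% interval covers counting error only.

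Clusters were named from markers. Epithelium-like cells (143, 1552 and 2878 in sets 1, 2 and 3) had summed epithelial markers of 6197 to 8186 CPM, against 64.2 to 282 CPM in fibroblast-like cells. Fibroblast-like cells (372, 1814 and 2692) had summed fibroblast markers of 15068 to 17725 CPM. Smooth muscle-like cells numbered 78, 1599 and 1954. Their summed smooth muscle markers stood at 26225 and 25462 CPM in sets 2 and 3 but at 4730 CPM in set 1, below their own fibroblast markers there (5622 CPM). Only 24.4% of the smooth muscle-like cells of set 1 kept that class when classed one by one. Values of that group rest on a weaker identity than those of sets 2 and 3.

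RefSeq (GRCm38.p6, the assembly of mm10) places *Shh* on chromosome 5 from 28456840 to 28467101, *Smo* on chromosome 6 from 29735497 to 29761366, and *Gli1* on chromosome 10 from 127329882 to 127341579. *Gli2* lies on chromosome 1 from 118834061 to 119054405 and *Hhip* on chromosome 8 from 79965850 to 80058060. The promoter table held *Hhip*, *Smo* and *Gli2*, whose epithelial rates were all below the fibroblast rates in at least set 1. Their 250 bases before the transcription start are shown 5′ to 3′ on the gene's own strand, because Gli proteins bind DNA at a known motif. Capitals mark matches to the motif's core, CCACCC, or to its reverse complement, GGGTGG. Each stretch is counted from the transcript start of the promoter table, so those of *Hhip* and *Gli2* overlap the outer span of their own gene. The stretches are chr8:80058009-80058258 (minus strand) for *Hhip*, chr6:29735247-29735496 (plus strand) for *Smo* and chr1:119053620-119053869 (minus strand) for *Gli2*.
Hhip: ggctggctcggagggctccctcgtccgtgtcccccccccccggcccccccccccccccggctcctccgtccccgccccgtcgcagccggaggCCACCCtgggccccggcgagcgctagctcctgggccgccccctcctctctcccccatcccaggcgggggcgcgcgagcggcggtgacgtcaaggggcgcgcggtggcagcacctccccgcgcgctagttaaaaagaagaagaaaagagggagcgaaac
Smo: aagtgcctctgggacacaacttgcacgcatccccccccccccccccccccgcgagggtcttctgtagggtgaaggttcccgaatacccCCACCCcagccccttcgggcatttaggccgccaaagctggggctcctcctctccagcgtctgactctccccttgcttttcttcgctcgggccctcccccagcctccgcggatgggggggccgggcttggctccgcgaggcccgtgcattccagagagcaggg
Gli2: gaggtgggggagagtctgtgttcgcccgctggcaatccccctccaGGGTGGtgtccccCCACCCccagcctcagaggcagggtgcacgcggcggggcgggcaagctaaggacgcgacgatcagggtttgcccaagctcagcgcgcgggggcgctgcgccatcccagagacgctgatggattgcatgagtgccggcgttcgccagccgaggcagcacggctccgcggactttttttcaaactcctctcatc
The leftmost base of the match as printed lay 158 bases before the start in *Hhip* and 162 bases before it in *Smo*. *Gli2* held 2 matches, 192 bases before the start and, for the reverse complement, 205 bases before it. Of 32851 promoter stretches of this length, 28.1% held the core on either strand. The full consensus GACCACCCA, which contains the core, was in 0.225% of stretches and in none of these 3. A match is a run of letters and not a bound site.

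*Shh*, the ligand, was found mostly in epithelium-like cells. Its rate there was 77.9 CPM (95% interval 71.2 to 85.0, 500 UMIs) in set 1, 31.3 CPM (27.7 to 35.3, 274 UMIs) in set 2 and 13.9 CPM (12.2 to 15.8, 233 UMIs) in set 3. The 3 sets were not compared as ages. These cells held 81.3%, 95.8% and 94.7% of all *Shh* UMIs of sets 1, 2 and 3. The unnamed cluster 11, described below, held 14.3% of them in set 1 (88 UMIs, in 25 of its 33 cells), 0.699% in set 2 and 4.07% in set 3. Fibroblast-like cells had 22, 3 and 0 *Shh* UMIs, and smooth muscle-like cells 1, 1 and 0.

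The log2 ratio of epithelium-like to fibroblast-like rates was 4.68 (4.07 to 5.37) in set 1 and 4.95 (3.39 to 7.24) in set 2, the latter over 3 fibroblast UMIs. With 0 UMIs taken as 3, *Shh* was at least 18.4-fold higher in the epithelium-like cells of set 3. With at least 1000 genes per cell the log2 ratio of set 3 turned to -1.16, on 87 epithelial and 6 fibroblast UMIs, and 29 of its 44 fibroblast-like cells then came from the epithelial cluster 3. That filter gave 1.81 in set 2, with 0 fibroblast UMIs set to 3. Of the 22 fibroblast-like UMIs in set 1, 19 came from a single cell whose epithelial markers summed to 2735 CPM and whose fibroblast markers summed to 297 CPM. A second cell with 1221 CPM of epithelial markers gave 2 more. With stromal cells over 1000 CPM of epithelial markers left out, the log2 ratio in set 1 was 7.54, with the 1 fibroblast UMI left set to 3.

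Because the sets differ in depth, shares of cells were given before and after thinning every cell to 900 UMIs. In set 1, 80 of 143 epithelium-like cells (55.9%, exact binomial interval 47.4 to 64.2) had a *Shh* UMI, in set 2 14.3% of cells (12.6 to 16.1) and in set 3 6.88% (5.98 to 7.87). After thinning, the shares were 7.75% (3.93 to 13.4), 3.76% (2.87 to 4.83) and 1.73% (1.28 to 2.27). Thinning lowered the share most in the deep set 1.

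In fibroblast-like cells, 3 of 372 and 3 of 1814 cells of sets 1 and 2 had a *Shh* UMI. Of the 2692 in set 3, 0 did, which allows a share of up to 0.111% (3 cells of the total, as for each count of 0 below). Leukocyte-like cells, which should lack *Shh*, had a UMI in 0 of 38, 3 of 25 and 0 of 176 cells, with median depths of 10313, 2027 and 1996 UMIs. The 3 leukocyte-like cells of set 2 with *Shh* carried epithelial markers at 5598 CPM and leukocyte markers at 2281 CPM, and the other 22 cells carried epithelial markers at 2839 CPM. The share of 12.0% there thus comes from cells with markers of both classes.

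Cells that carried *Shh* often had a single UMI in the shallower sets (180 of 222 in set 2 and 171 of 198 in set 3). In set 1 the median was 3.5 UMIs per *Shh*-carrying cell and the highest was 28. The 15 epithelium-like cells of set 1 with most *Shh* held 55.2% of its UMIs. *Shh* was thus unevenly spread over the epithelium-like cells of the deepest set.

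**Figure D1:**
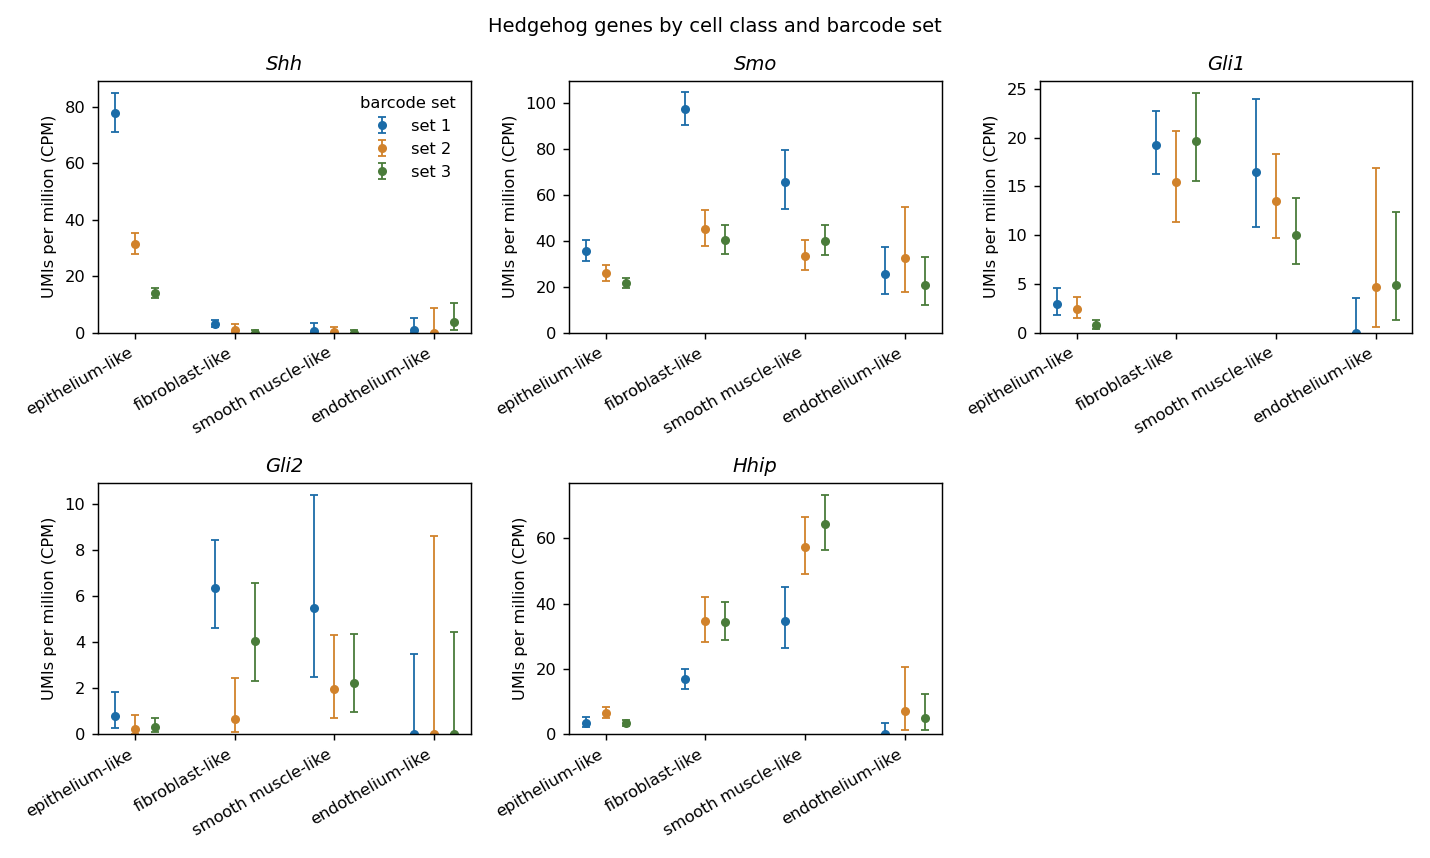
Rates of the 5 genes (vertical axes, CPM, starting at 0) by cell class and barcode set, with points for the pooled rate and bars for exact 95% Poisson intervals. *Shh* stands in epithelium-like cells (77.9, 31.3 and 13.9 CPM), whereas *Gli1* and *Hhip* stand in fibroblast-like and smooth muscle-like cells.

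Within the epithelium, *Shh* differed between clusters. Cluster 3 was led by *Lamb3*, a laminin chain of basal cell adhesion, cluster 4 by *Lgals7* and *Serpinb5*, and cluster 5 by *Asprv1* and *Clca1*, with *Tspan1* and *Cldn3* among its leading genes. *Lamb3* was at 40.5, 91.0 and 59.8 CPM in cluster 3 of sets 1, 2 and 3, and at 16.8, 17.97 and 5.55 CPM in cluster 5. *Shh* was at 154, 39.4 and 26.7 CPM in cluster 3, against 54.6, 11.01 and 2.55 CPM in cluster 5.

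The log2 ratio of cluster 3 over cluster 5 was 1.495 (1.24 to 1.75), 1.84 (1.32 to 2.38) and 3.39 (2.74 to 4.09), so *Shh* was higher in the *Lamb3*-led cluster in every set. Cluster 4 had 70.3 CPM (63 UMIs) in set 2 and 28.1 CPM (72 UMIs) in set 3, and only 3 cells in set 1. It stood above cluster 3 in set 2 (log2 ratio of 3 over 4 of -0.84, -1.26 to -0.40), while in set 3 the interval of that ratio spanned 0 (-0.08, -0.50 to 0.36). Cluster 11 carried all 13 epithelial markers with a row but was left unnamed, because its 10 leading genes held the leukocyte marker *Cd52* and no epithelial marker. It had *Shh* at 51.4, 7.48 and 8.76 CPM. Its summed leukocyte markers were at 1.17 CPM in set 1, against 2936 and 2191 CPM in sets 2 and 3. Its summed epithelial markers were at 7539, 8202 and 6728 CPM.

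Epithelium-like cells with a *Shh* UMI also had more *Lamb3* than those without. In set 1 *Lamb3* was at 31.9 CPM (26.7 to 38.0) with and 7.13 CPM (4.15 to 11.4) without, in set 2 at 75.7 and 59.3 CPM, and in set 3 at 46.5 and 27.7 CPM. *Itga6*, an integrin chain of basal cells, was at 72.3 and 27.3 CPM in set 1, 412 and 333 CPM in set 2, and 442 and 325 CPM in set 3. Intervals of cells with and without *Shh* did not overlap for *Itga6* in any set, and for *Lamb3* they overlapped in set 2 only.

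*Tspan1*, a tetraspanin among the leading genes of cluster 5, did not keep 1 direction. It was at 107 CPM in *Shh*-carrying and 47.4 CPM in other cells of set 1, but at 99.1 against 227 CPM in set 2 and 143 against 348 CPM in set 3. Cells with *Shh* were deeper (medians of 48204 against 25907 UMIs in set 1, 5085 against 3937 in set 2 and 4431 against 3527 in set 3), and in set 1 those with *Shh* had lower summed fibroblast markers (320 against 1139 CPM) and smooth muscle markers (302 against 448 CPM). In sets 2 and 3 both sums were higher with *Shh*, for fibroblast markers at 1928 against 1835 CPM and 1763 against 1038 CPM. The part of depth and of these markers in the differences was not tested.

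*Smo*, the transducer, was found in epithelium-like, fibroblast-like, smooth muscle-like and endothelium-like cells of every set. Fibroblast-like cells had 97.5 CPM (90.5 to 105, 708 UMIs), 45.1 CPM (37.8 to 53.5) and 40.1 CPM (34.1 to 46.9) in sets 1, 2 and 3. Smooth muscle-like cells had 65.8, 33.2 and 40.0 CPM, and epithelium-like cells 35.5, 26.0 and 21.4 CPM. Endothelium-like cells, at 25.6, 32.7 and 20.54 CPM, had intervals that overlapped those of the epithelium. Leukocyte-like cells had 5, 0 and 7 *Smo* UMIs.

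At the main settings *Smo* was lower in the epithelium than in fibroblasts of all sets. The log2 ratio was -1.46 (-1.68 to -1.24) in set 1, -0.80 (-1.11 to -0.48) in set 2 and -0.90 (-1.18 to -0.63) in set 3. Between smooth muscle-like and fibroblast-like cells the ratios were -0.57 (-0.87 to -0.27), -0.44 (-0.83 to -0.06) and -0.01 (-0.34 to 0.33). With at least 1000 genes per cell, the ratios of set 2 turned to 0.30 for the epithelium and 0.64 for smooth muscle, on 10 fibroblast UMIs. At the main settings the difference passed 2-fold only between epithelium and fibroblasts of set 1. It also did so for the epithelium of set 3 with at least 1000 genes per cell (-1.11) and for the smooth muscle of set 1 by the mean of per-cell rates (-1.09). Within the epithelium, *Smo* was higher in cluster 3 than in cluster 5, by 1.21 (0.82 to 1.60), 0.45 (0.03 to 0.87) and 0.81 (0.47 to 1.15) on the log2 scale. In set 1, 58 of the 95 *Smo* UMIs of cluster 3 came from 22 cells that a finer clustering resolution of 1.0 classed as smooth muscle-like. Those cells had *Smo* at 85.9 CPM, with summed epithelial markers at 748 CPM and fibroblast markers at 3235 CPM. Within the fibroblasts of set 1, cluster 1 (led by *Fgf21* and *Lamc3*) had 128 CPM and cluster 2 (led by *Dpt* and *Ptx3*) 67.4 CPM, whereas the intervals of that ratio spanned 0 in sets 2 and 3.

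*Gli1* was a stromal transcript. It was at 19.3 CPM (16.2 to 22.8, 140 UMIs), 15.5 CPM (11.3 to 20.7, 46 UMIs) and 19.7 CPM (15.6 to 24.6, 78 UMIs) in fibroblast-like cells of sets 1, 2 and 3. Smooth muscle-like cells had 16.5, 13.5 and 10.0 CPM on 27, 41 and 36 UMIs. Epithelium-like cells had 2.96, 2.40 and 0.777 CPM on 19, 21 and 13 UMIs. No leukocyte-like cell of any set had a *Gli1* UMI, with 38, 25 and 176 cells looked at, which allows shares of up to 7.89%, 12.0% and 1.70%. With 0 UMIs taken as 3, rates of up to 6.26, 36.6 and 7.33 CPM are allowed. The limit of set 2 lay above its fibroblast-like rate, so no contrast with the stroma can be read there.

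Epithelium-like over fibroblast-like log2 ratios of *Gli1* were -2.70 (-3.48 to -2.01), -2.69 (-3.51 to -1.92) and -4.66 (-5.64 to -3.81). The ratio of set 1 was -5.51 with cells classed one by one (3 epithelial UMIs), and that of set 2 was -4.39 with at least 1000 genes per cell. Thinned to 900 UMIs, set 1 had 1 epithelial and 8 fibroblast UMIs, too few to give a direction. Smooth muscle-like and fibroblast-like rates could not be told apart in sets 1 and 2, where the ratios were -0.23 (-0.88 to 0.37) and -0.20 (-0.84 to 0.44). In set 3 smooth muscle-like cells were lower, by -0.98 (-1.59 to -0.39) on the log2 scale.

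Within the fibroblasts, *Gli1* was higher in cluster 1 than in cluster 2, at 27.5 against 9.92 CPM in set 1, 20.3 against 11.1 CPM in set 2 and 24.8 against 14.8 CPM in set 3. On the log2 scale this was 1.47 (0.89 to 2.08) in set 1, 0.87 (-0.11 to 1.89) in set 2 and 0.75 (0.03 to 1.497) in set 3, so the interval held 0 in set 2. A *Gli1* UMI was found in 29.0% of the fibroblast-like cells of set 1, 2.54% of set 2 and 2.79% of set 3, and after thinning in 1.89%, 1.12% and 1.73%. Intervals after thinning ran from 0.762 to 3.85 in set 1, from 0.662 to 1.76 in set 2 and from 1.24 to 2.35 in set 3.

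*Gli2*, known as the main first activator in the pathway, was sparse in this table. Fibroblast-like cells had 46, 2 and 16 UMIs (6.34, 0.674 and 4.04 CPM), smooth muscle-like cells 9, 6 and 8 UMIs (5.48, 1.97 and 2.22 CPM) and epithelium-like cells 5, 2 and 5 UMIs. The log2 ratio of epithelium-like over fibroblast-like cells was -3.02 (-4.71 to -1.70) in set 1 and -3.76 (-5.56 to -2.24) in set 3. In set 2 both sums were under 3 UMIs, and no fold is given. *Gli2* had 0 UMIs in the endothelium-like and leukocyte-like cells of all sets.

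*Hhip*, target and antagonist, was the only 1 of the 5 genes whose pooled rate was higher in smooth muscle-like than in fibroblast-like cells of every set with an interval above 0. Smooth muscle-like rates were 34.7 CPM (26.3 to 45.0, 57 UMIs), 57.3 CPM (49.1 to 66.4, 174 UMIs) and 64.4 CPM (56.4 to 73.3, 232 UMIs). Fibroblast-like rates were 16.8 CPM (13.95 to 20.1), 34.7 CPM (28.3 to 42.1) and 34.3 CPM (28.8 to 40.6). Smooth muscle over fibroblast, this gave log2 ratios in sets 1 to 3 of 1.05 (0.57 to 1.51), then 0.72 (0.36 to 1.09), then 0.91 (0.60 to 1.22). At the finer clustering resolution of 1.0, which moved 43, 334 and 265 smooth muscle-like cells to the fibroblasts and 22, 151 and 192 epithelium-like cells into the smooth muscle-like class, the ratios were 0.27, 0.44 and 0.31. With at least 1000 genes per cell, which left few stromal cells, they turned to -1.46 in set 2 and -0.50 in set 3. There, 107 of 109 and 64 of 70 smooth muscle-like cells came from the epithelial cluster 3.

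Fibroblast clusters differed in *Hhip* too. Cluster 1 had 31.0 CPM and cluster 2 had 3.502 CPM in set 1, a log2 ratio of 3.15 (2.28 to 4.14). The ratio was 0.09 (-0.60 to 0.77) in set 2 and 0.97 (0.41 to 1.57) in set 3. The smooth muscle-like cluster 0 stood above cluster 2 in set 1 (log2 ratio 3.31, 2.40 to 4.34), but its interval over cluster 1 held 0 there (0.16, -0.33 to 0.64). Over cluster 1 the ratio was 0.89 (0.36 to 1.46) in set 2 and 0.59 (0.23 to 0.95) in set 3. The fibroblast-like cluster 9, led by the mitotic genes *Cenpf* and *Cenpa* and carrying 6 smooth muscle markers, had *Hhip* at 66.8 CPM (43.7 to 97.9) in set 2 and 52.3 CPM (23.9 to 99.3) in set 3, and it had 17 cells in set 1. Pericyte-like cells, another contractile type around vessels, had 0 *Hhip* UMIs in 11, 29 and 128 cells of sets 1, 2 and 3, which allows shares of up to 27.3%, 10.3% and 2.34%. As rates this allows up to 10.9, 65.4 and 15.1 CPM. The limit of set 2 lay above its smooth muscle-like rate of 57.3 CPM, so no contrast with smooth muscle can be read there. Leukocyte-like cells had *Hhip* UMIs only in set 2 (3 of 25 cells), the set whose leukocyte-like cells also carried smooth muscle markers at 6550 CPM.

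**Figure D2:**
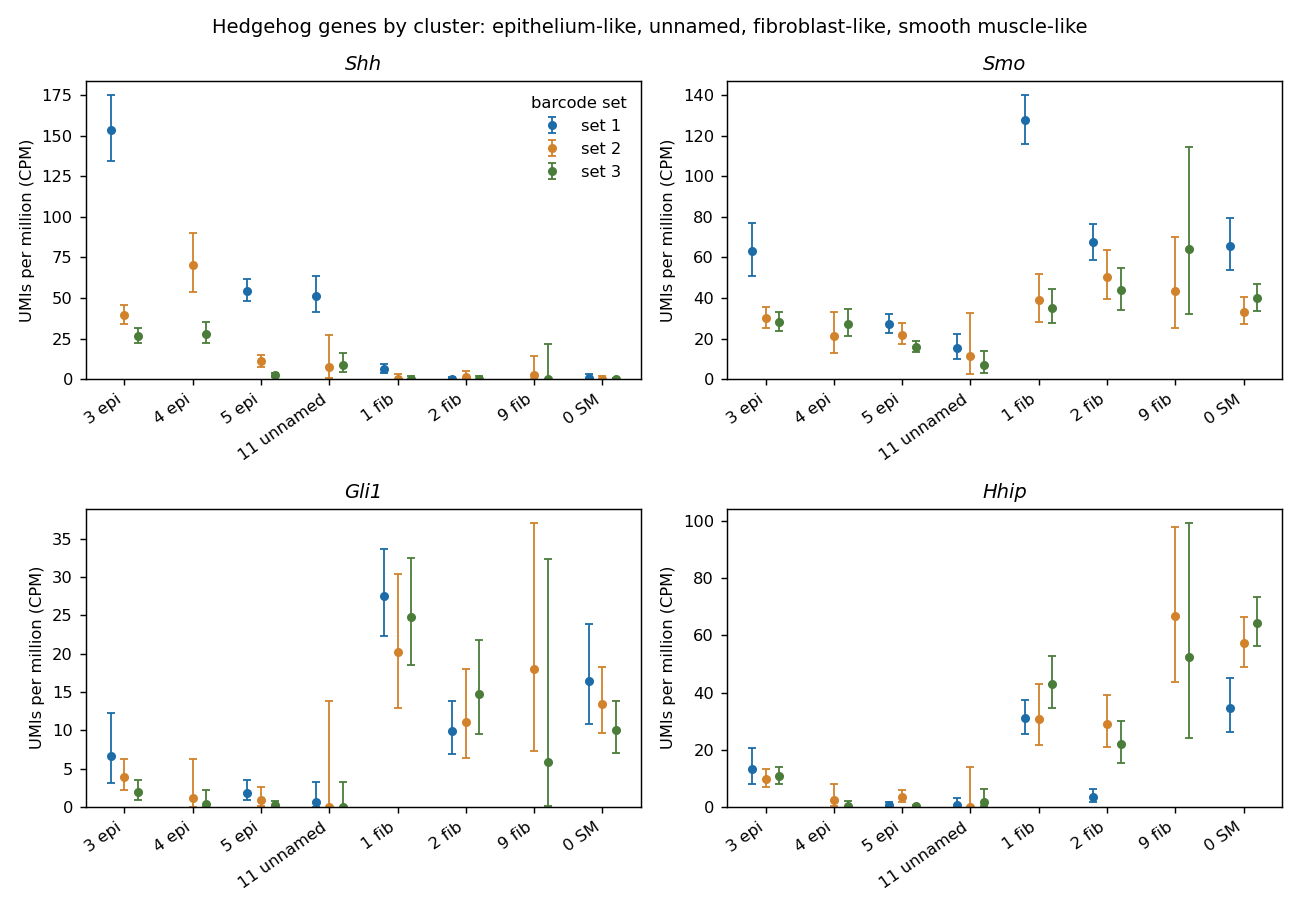
Rates of *Shh*, *Smo*, *Gli1* and *Hhip* (CPM, axes from 0) in the epithelium-like clusters 3, 4 and 5, the unnamed cluster 11, the fibroblast-like clusters 1, 2 and 9 and the smooth muscle-like cluster 0, for groups of at least 20 cells with exact 95% Poisson intervals. The pooled rate of *Shh* is lower in cluster 5 than in cluster 3 in each set, and that of *Hhip* in set 1 is 31.0 CPM in cluster 1 against 3.502 CPM in cluster 2.

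*Hhip* was low but present in epithelium-like cells, with 23, 57 and 58 UMIs (3.58, 6.52 and 3.46 CPM), of which cluster 3 held 20, 43 and 55. Resolution 1.0 took 22, 151 and 192 cells (22, 151 and 190 of them from cluster 3) out of the epithelium and put them in a smooth muscle-like cluster. These cells carried markers of both sides. In sets 2 and 3 their summed epithelial markers were 4117 and 4817 CPM and their summed smooth muscle markers 10165 and 9255 CPM, while those of set 1 had 748 and 1373 CPM with fibroblast markers at 3235 CPM.

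*Hhip* was at 23.7 CPM (13.5 to 38.5, 16 UMIs), 26.0 CPM (15.6 to 40.6, 19 UMIs) and 44.5 CPM (32.0 to 60.4, 41 UMIs) in those cells. In the 119, 1393 and 2662 cells that were epithelium-like at both resolutions it was at 0.885 CPM (0.287 to 2.07), 4.75 CPM (3.36 to 6.53) and 1.08 CPM (0.631 to 1.73). *Gli1* was likewise at 11.9, 9.57 and 5.43 CPM in the cells that moved, against 1.95, 1.75 and 0.509 CPM in the cells that stayed. *Shh* was at 43.0, 27.3 and 18.46 CPM in the cells that moved and at 79.8, 31.8 and 13.5 CPM in those that stayed.

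Without the cells that moved, the epithelium-like over fibroblast-like log2 ratio of *Hhip* was -3.79 in set 1, against -2.23 (-2.94 to -1.58) with them, and -5.00 in set 3, against -3.31 (-3.78 to -2.86) with them. In set 2 it was -2.87, against -2.41 (-2.90 to -1.93) with them. Epithelium-like cells with a *Hhip* UMI had summed smooth muscle markers of 1525, 6187 and 9168 CPM, and those without had 244, 2240 and 1115 CPM. Whether 2 cells shared a droplet in these cases was not tested.

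**Figure D3:**
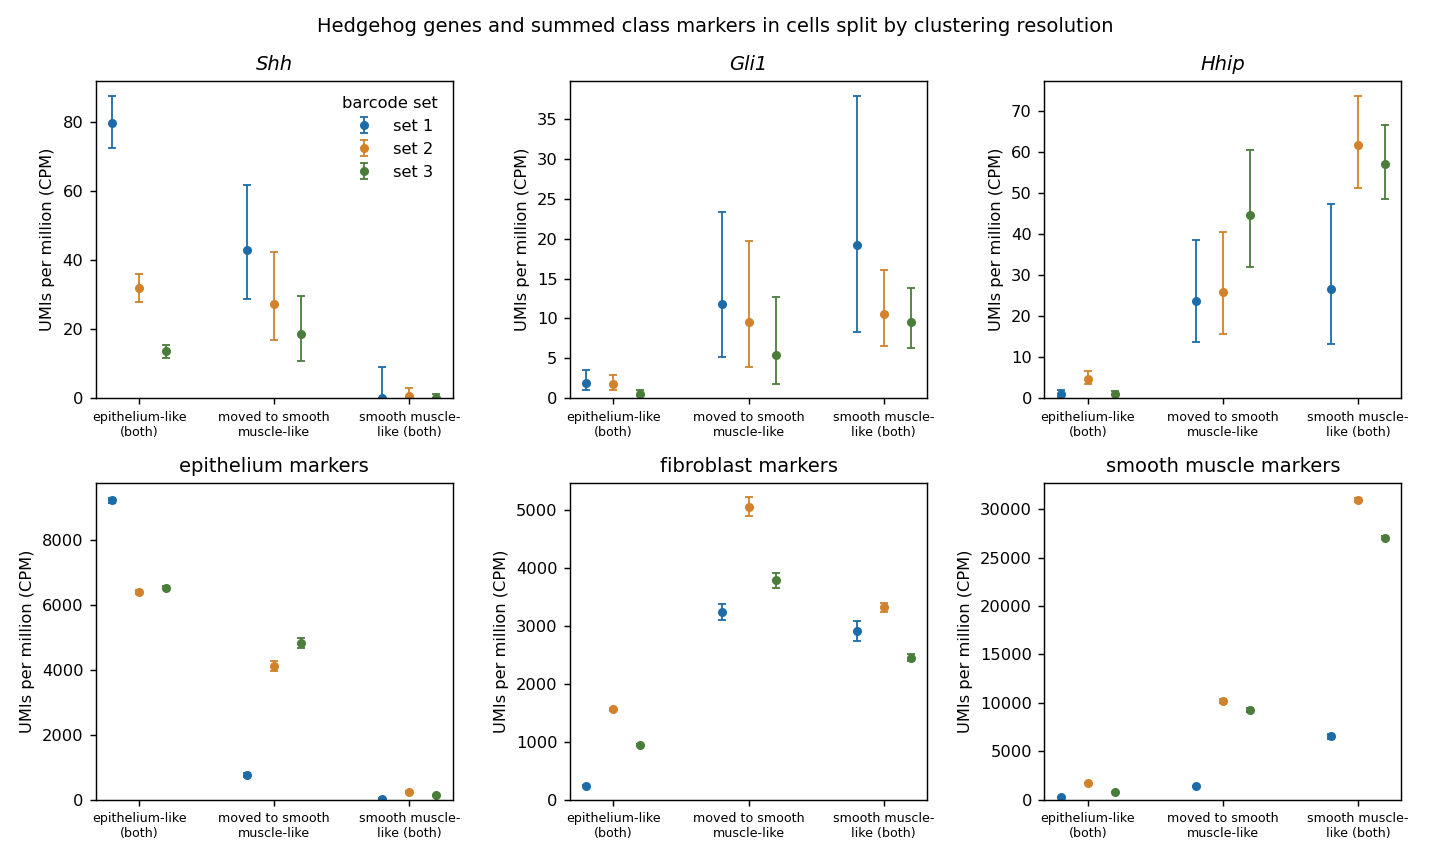
Rates of *Shh*, *Gli1* and *Hhip* and of summed class markers (CPM, axes from 0, exact 95% Poisson intervals) in cells that were epithelium-like at both clustering resolutions, epithelium-like cells that resolution 1.0 moved to a smooth muscle-like cluster, and cells that were smooth muscle-like at both. The cells that moved combine *Shh* (43.0, 27.3 and 18.46 CPM) with *Hhip* (23.7, 26.0 and 44.5 CPM).

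Between epithelium-like and fibroblast-like cells, a gene was counted as called when its rates differed at least 2-fold with an interval that excluded 0 and it had at least 10 UMIs over both classes. *Shh* was called higher in the epithelium in each set, as were 14.2%, 12% and 17.2% of all genes tested in sets 1, 2 and 3. Of the 5 genes, *Gli1*, *Gli2*, *Smo* and *Hhip* (4 of 5 tested) were called lower in set 1, *Gli1* and *Hhip* (2 of 4) in set 2, and *Gli1*, *Gli2* and *Hhip* (3 of 5) in set 3. The shares of all genes called lower were 20.6%, 18.8% and 21.4%.

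Between smooth muscle-like and fibroblast-like cells, 5, 3 and 4 of the 5 genes were tested in sets 1, 2 and 3, and only *Hhip* of set 1 was called (1 of 5), higher in smooth muscle at 2.07-fold. That value rests on the group of which 24.4% kept its class one by one, and it was below 2-fold at resolution 1.0 (log2 ratio 0.27). Of all genes tested, 4.04%, 6.7% and 10.1% were called higher in sets 1, 2 and 3, and 6.91%, 8.94% and 13.7% lower. None of the 5 genes was called lower in any set.

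**Figure D4:**
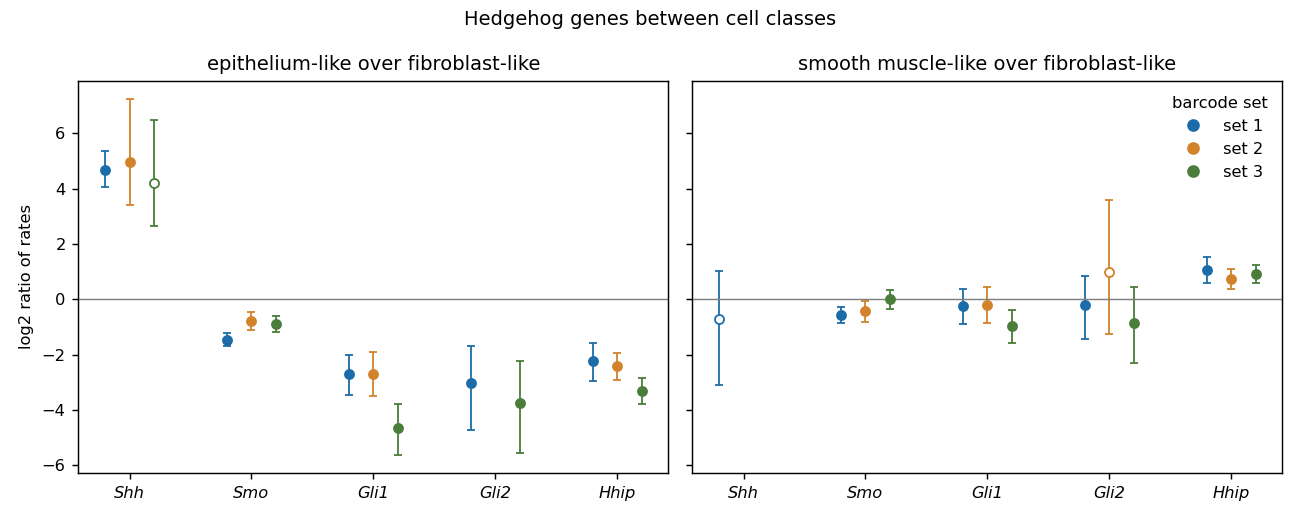
Log2 ratios of rates, epithelium-like over fibroblast-like (left) and smooth muscle-like over fibroblast-like (right), for each gene and barcode set with exact 95% intervals from the binomial split of UMIs. Open points have a sum under 3 UMIs set to 3, ratios with both sums at or under 3 are not drawn, and in the left panel *Shh* lies above 0 (4.68 and 4.95 in sets 1 and 2, a bound in set 3) and the other genes drawn lie below.

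Co-detection within the stroma was most readable in the deep set 1. Fibroblast-like cells with a *Gli1* UMI (108 of 372) had *Hhip* at 24.4 CPM (18.6 to 31.5) and those without at 13.0 CPM (10.0 to 16.6). *Smo* was at 106 CPM (93.3 to 120) and 93.3 CPM (84.9 to 102), and *Gli2* at 8.68 CPM (5.38 to 13.3) and 5.16 CPM (3.34 to 7.62). Of these 3 genes only *Hhip* had intervals that did not overlap. Cells with *Gli1* had a median of 16978.5 UMIs and those without 14675, and the part of depth or cluster in the difference was not tested.

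Seen from *Hhip*, fibroblast-like cells of set 1 with a *Hhip* UMI had *Gli1* at 34.8 CPM (25.9 to 45.7) against 15.4 CPM (12.3 to 18.9) without. *Smo* was also higher in the former, at 129.6 CPM (111.8 to 149.4) against 89.4 CPM (81.9 to 97.4), while in sets 2 and 3 both genes had overlapping intervals. In sets 2 and 3 *Hhip* was at 66.8 CPM (28.8 to 132) and 40.8 CPM (13.3 to 95.3) in the 46 and 75 fibroblast-like cells with *Gli1*, and at 33.3 and 34.1 CPM in the rest, with overlapping intervals. Smooth muscle-like cells with and without *Gli1* had overlapping *Hhip* intervals in all sets, at 38.2 and 32.7 CPM in set 1, 41.0 and 57.9 CPM in set 2 and 31.5 and 65.0 CPM in set 3. In the epithelium of set 1, *Gli1* was at 0.495 CPM (0.0600 to 1.79) in cells with *Shh* and 7.13 CPM (4.15 to 11.4) in cells without, whose summed fibroblast markers were 320 and 1139 CPM. Set 3 ran the other way, with *Gli1* at 2.91 CPM (0.792 to 7.44, 4 UMIs) with and 0.586 CPM (0.268 to 1.11, 9 UMIs) without *Shh*, and fibroblast markers at 1763 and 1038 CPM. In set 2 the intervals overlapped (1.38 and 2.61 CPM). *Gli1* thus kept no single direction with *Shh* over the sets, and intervals overlapped in sets 2 and 3. A *Shh* and a *Gli1* UMI were found in the same cell in 5, 2 and 5 cells of sets 1, 2 and 3, of which 2, 2 and 4 were epithelium-like.

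Pathway genes with a row were called lower in the epithelium more often than higher, as were all genes tested. Of 31, 24 and 27 list genes tested between epithelium-like and fibroblast-like cells, the 5 members included, 16 (51.6%), 10 (41.7%) and 15 (55.6%) were called lower in the epithelium, beside 20.6%, 18.8% and 21.4% of all genes tested. The median log2 ratio of the list was -1.15, -0.85 and -1.52, beside -0.14, -0.10 and 0.06 for all genes tested. In each set 2 list genes (6.45%, 8.33% and 7.41%) were called higher in the epithelium, below the 14.2%, 12% and 17.2% of all genes. They were *Shh* with *Ihh* in set 1 and with *Ccnd1* in sets 2 and 3.

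Beyond *Shh*, *Gli1* and *Hhip*, 6 list genes were called in the same direction in all sets, each lower in the epithelium. With *Gli1* and *Hhip* these were 8 of the 24 list genes tested in all sets (33.3%), beside 11.2% of 6874 genes. Among genes of ligand release and binding, *Disp1* (the Dispatched transporter that releases lipid-modified ligand) had log2 ratios of -1.49, -2.24 and -2.40. *Scube2* (a secreted carrier of ligand) had -2.63, -3.74 and -3.54, the first with 1 epithelial UMI set to 3. *Gpc3* (a glypican that competes for ligand) had -2.37, -2.20 and -4.06, from 328, 270 and 142 CPM in fibroblast-like cells.

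Of the cilium genes, *Evc* (a ciliary partner of Smoothened) had -1.66, -1.56 and -2.18, and *Ift80* (a part of intraflagellar transport) had -1.99, -1.64 and -1.52. *Sfrp1*, a secreted Wnt modulator listed among targets, had -3.27, -3.74 and -4.70. *Sfrp1* was also the only list gene called in every set between smooth muscle-like and fibroblast-like cells, where it was lower in smooth muscle at -1.93, -1.88 and -1.85 (1 of 23 list genes, beside 2.08% of 6142 genes). *Disp1* and *Evc* rest on few UMIs in set 2 (5 epithelial and 8 fibroblast UMIs of *Disp1*, 9 and 9 of *Evc*).

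*Ptch1* was not analysed here. *Ccnd1*, a cyclin, stood at 505 and 215 CPM in epithelium-like and 54.9 and 24.5 CPM in fibroblast-like cells of sets 2 and 3, but at 43.0 and 63.2 CPM in set 1.

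**Figure D5:**
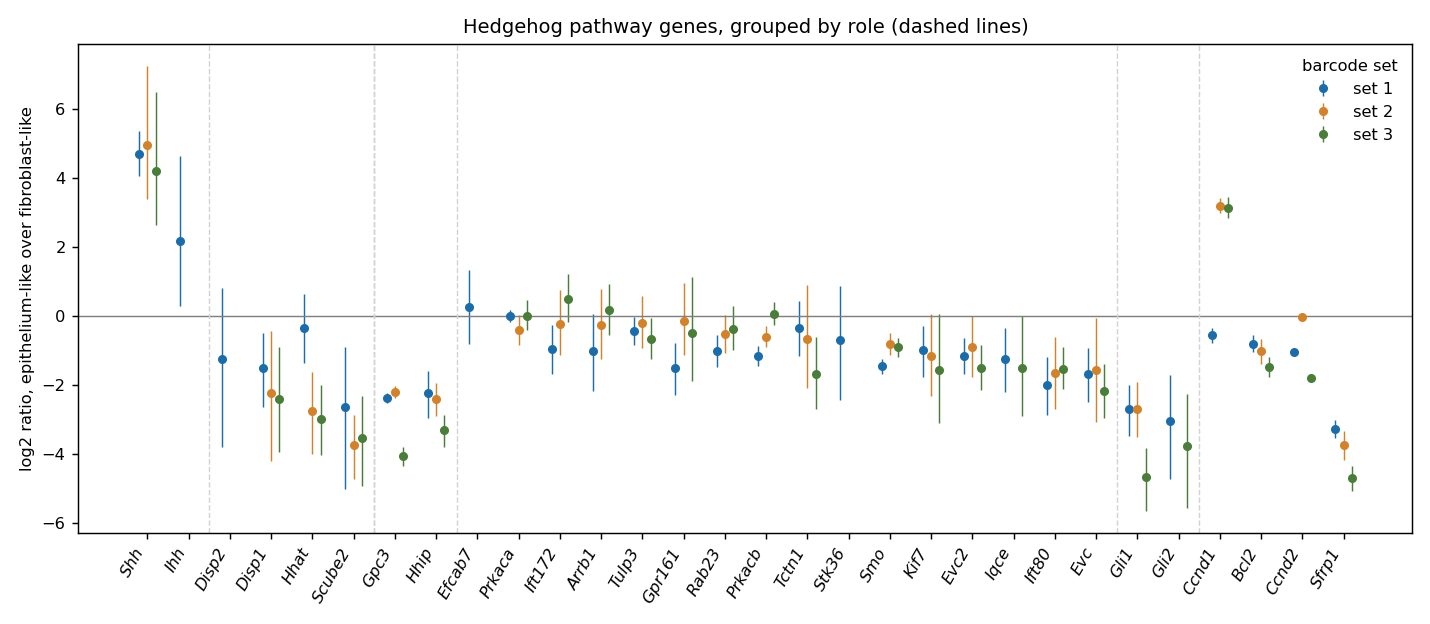
Epithelium-like rates over fibroblast-like rates (log2, vertical axis) for pathway genes reported here with at least 10 UMIs over both classes of a set, ordered by role (ligands, ligand release, antagonists, transducers, Gli factors, other targets), with exact 95% intervals. *Shh*, *Ihh* in set 1 and *Ccnd1* in sets 2 and 3 rise above 0, and most other points lie at or below 0.

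Genes whose rates ran most like each member over 34 groups (a cluster within a set, at least 20 cells) were ranked by Pearson's r of log2 (CPM + 5). For *Shh* they included *Plch2* (r = 0.919) and 9530036O11Rik (0.867). *Plch2*, a phospholipase C, was at 19.3, 16.5 and 8.07 CPM in epithelium-like and 1.24, 1.01 and 1.01 CPM in fibroblast-like cells. For *Gli1* they were *Prrx2* (0.924), *Pdgfra* (0.901) and *Bnc2* (0.901), a homeobox gene, a growth factor receptor of fibroblasts and a zinc finger gene.

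For *Hhip* the genes were *Crispld1* (0.850), *Fgf7* (0.841) and *Bdh2* (0.839). *Fgf7*, a growth factor made by stroma, was at 55.4, 149 and 124 CPM in smooth muscle-like, 31.3, 45.8 and 65.9 CPM in fibroblast-like and 5.14, 15.7 and 6.15 CPM in epithelium-like cells, the same order of classes as *Hhip*. *Crispld1* did not have that order, at 10.97, 35.9 and 34.2 CPM in smooth muscle-like and 19.6, 68.7 and 57.1 CPM in fibroblast-like cells. *Bdh2* had it in sets 2 and 3 but not in set 1 (10.97 against 24.1 CPM). For *Smo* they were *Scmh1* (0.882), *Dtl* (0.814) and *Tgif2* (0.769), and for *Gli2* *Msi1* (0.852), *Dact3* (0.824) and *Sema6c* (0.811). Groups of 1 set share a library and its depth, and this likeness is a description with no test. With 1 CPM added in place of 5, *Bnc2*, *Msi1*, *Dact3*, *Tgif2* and *Fgf7* were no longer among the 3 most like genes.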

How the data were processed

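Droplet libraries of 3 mouse tissues were measured, 1 per group. Per the labels, UMIs were counted with Cell Ranger 3.1.0 on mm10, and the labels name v3 chemistry where the study's methods name a v2 kit. The study's methods name a filter of multiplets, but whether it had been applied to this table was not tested. No doublet removal was added, so doublets may remain. The deposited table held natural log values (10000 times each gene's share of its cell's UMIs, plus 1, then logged), where counts had been foreseen. Whole UMIs were recovered from the steps within each cell, and all 11121287 values above 0 came out whole within 0.05. The table was used in part (9781 rows, holding 49.4% to 52.7% of each set's UMIs), and genes such as *Ptch1* were not analysed here. Single values of some other genes are not reported here, though they enter the counts.

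Cells with under 200 genes were left out (97, all of set 3). Sets were integrated in Seurat 5.3.0 (R 4.3.3) over 20 dimensions with cell cycle regression, 2000 features without Hedgehog list genes and *EGFP*, 30 principal components and resolution 0.5, giving 13 clusters. A cluster took the class with the largest share of its markers carried (in at least 10% of cells, at 2 times the median cluster rate or more), with at least 3 carried and no other class ahead among its 10 leading genes. This scoring was set after clusters were seen.

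Rates had exact 95% Poisson intervals, shares exact binomial (Clopper-Pearson) intervals, and log2 ratios intervals from the binomial split of UMIs. Sums of 0 to 2 UMIs were set to 3 in ratios, and no fold was given with both sums at or under 3. A count of 0 was taken to allow 3 cells of the total, or 3 UMIs for a rate. Intervals and limits cover counting error only. For thinned shares, cells under 900 UMIs (7, 342 and 693 in sets 1, 2 and 3) were left out. Members and lists were chosen with earlier results of these data known. List genes were named when at least 2-fold apart with an interval excluding 0 and the same sign in all sets, and likeness used genes with at least 100 UMIs. Positions and promoters came from RefSeq (GRCm38.p6), which matched 94.8% of rows by name. The recovery of UMIs and the ratios with their intervals were tested on simulated cells. These varied in depth and by counting error only, and clustering, class naming and thinning were not part of that check.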

Additional observations from a re-analysis of the deposited data

How the results depend on the processing

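No paired analysis was possible because there was only 1 library in each group, and no test was made. Of 242 log2 ratios recomputed under 10 alternatives, 202 moved by less than their counting interval, 35 moved further and 5 whose interval excluded 0 changed sign, all 5 with at least 1000 genes per cell. Another 10, whose intervals held 0, also changed sign under other settings, all between smooth muscle-like and fibroblast-like cells and 6 of them within that interval. That filter left 2846 cells, and of its fibroblast-like cells 19 of 81 (set 2) and 29 of 44 (set 3) came from the epithelial cluster 3. The 5 were *Shh* epithelium-like over fibroblast-like in set 3 (-1.16), *Smo* in set 2 (0.30), and, smooth muscle-like over fibroblast-like, *Smo* in set 2 (0.64) and *Hhip* in sets 2 and 3 (-1.46 and -0.50). Under the same filter the epithelium-like over fibroblast-like ratios were 6.96 and 1.81 for *Shh* in sets 1 and 2 (1 and 0 fibroblast UMIs set to 3), -4.39 for *Gli1* in set 2, and -2.96, -4.03 and -5.70 for *Hhip*, and the smooth muscle-like ones -0.90 for *Gli1* in set 2 and -0.50 for *Smo* in set 3.

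At resolution 1.0 *Hhip* was at -4.49, -3.01 and -5.33 for the epithelium and 0.27 and 0.31 for smooth muscle in sets 1 and 3. *Shh* was then at 3.93 for smooth muscle in set 1, on 48 UMIs. That class had taken in 22 former epithelium-like cells, with 29 of these UMIs, and 1 former fibroblast-like cell. Its cells that were smooth muscle-like at both resolutions had 0 *Shh* UMIs. With cells classed one by one, set 1 gave 7.54 (*Shh*), -5.51 (*Gli1*), -1.85 (*Smo*) and -3.95 (*Hhip*) for the epithelium and 0.45 (*Gli1*) for smooth muscle, where *Shh* had 0 against 4 UMIs and its 3.09, with 0 set to 3, is an upper limit that gives no direction, and set 3 -3.96 (*Hhip*, epithelium). Thinned to 900 UMIs, set 1 gave 3.26 (*Shh*, 1 fibroblast UMI set to 3), -0.030 (*Gli1* and *Hhip*, on 8 fibroblast UMIs each and 1 and 0 epithelial UMIs set to 3) and -1.84 (*Smo*) for the epithelium and -0.92 (*Smo*) for smooth muscle. The thinned 0.89 (*Gli1*, smooth muscle, set 1, 0 against 8 UMIs) and -1.52 (*Gli2*, epithelium, set 3) are upper limits with 0 set to 3, and the former gives no direction. The mean of per-cell rates gave 5.52 (*Shh*, epithelium, set 1), -1.09 (*Smo*, smooth muscle, set 1) and 1.14 (*Hhip*, smooth muscle, set 2).

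Of 4 alternatives chosen after seeing the data, leaving out cluster 9 or counting cluster 11 as epithelium moved none of 27 ratios beyond their intervals. Leaving out the epithelium-like cells that moved gave -1.72 (*Smo*, set 1), -3.79 and -5.00 (*Hhip*, sets 1 and 3), and leaving out stromal cells over 1000 CPM of epithelial markers gave 7.54 (*Shh*, set 1, 1 fibroblast UMI set to 3). With at least 50 UMIs over both classes, fewer genes were tested. List genes higher in the epithelium of set 1 were then 1 of 22 (all genes 13.6%), lower ones 14 of 22, 6 of 15 and 9 of 18 (63.6%, 40% and 50%, beside 19.7%, 16.8% and 18.7% of all genes), and those higher in smooth muscle of set 2 were 0 of 12 (all genes 6.66%). Without integration set 1 gave no values, and sparse sums gave none for some ratios of *Gli1*, *Gli2*, *Shh*, *Smo* and *Hhip* under other settings. Except where values are given, the cause was not tested.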
